A study of Mus musculus with 6 samples.

Results

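Arrdc3, Sucnr1, Aqp8 and Aox3 were measured in the liver of alcohol-treated mice as 4 of the 27962 gene names on the arrays, and each was read by a single probe of the 41174 probes measured. They were selected because earlier results of these data placed them among the genes lowered repeatedly by the alcohol diet. Their alcohol over control ratios are therefore described here without a test. The probes were A_52_P164136 for Arrdc3, A_52_P614777 for Sucnr1, A_51_P183261 for Aqp8 and A_52_P16752 for Aox3, and with 1 probe for a gene the agreement between probes could not be examined.

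Liver RNA was taken from male mice of the 129/Sv strain that were 6 to 8 weeks old at the start. The alcohol-treated animals received the Lieber-DeCarli liquid diet with 4% ethanol ad libitum for 1, 2 or 4 months, and the controls received an isocaloric liquid diet in which maltose dextran replaced the ethanol. Both diets were liquid, and all mice had first been adapted to the control liquid diet, so a shared effect of liquid feeding is not visible in any ratio. Each pool combined RNA of 6 mice, so none of the 6 pools shows how mice varied. The alcohol and control pools of a month shared 2 two-color arrays on which the dyes Cy5 and Cy3 were exchanged, and such a pair counts as 1 replicate. The arrays of 1 month lay on a different slide from those of 2 and 4 months, so the step from 1 month to later months and the slide cannot be told apart. The share of spots well above background ranged from 73.3% to 90.3% over the channels, and precision is limited by having so few arrays. All 9 hepatocyte markers on the array, among them Alb, Apoa1, Ttr and Cps1, were well above background in every channel.

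The 4 genes have unrelated products. Arrdc3 encodes an alpha-arrestin, an adaptor that binds membrane cargo and recruits ubiquitin ligases of the NEDD4 family, and it is known for its role in the trafficking of membrane receptors. Sucnr1 encodes the G-protein-coupled receptor for succinate, an intermediate of the citric acid cycle that signals when released from cells, and in liver the receptor is best known on stellate cells. Aqp8 encodes a water channel of hepatocytes that resides in intracellular vesicles and the canalicular membrane and takes part in bile water secretion, and it is also found in the exocrine pancreas. Aox3 encodes an aldehyde oxidase, a molybdenum- and flavin-containing enzyme that oxidizes aldehydes and nitrogen heterocycles, and it is one of the main forms in mouse liver.

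In the mouse assembly GRCm38.p6, Arrdc3 spans chr13:80883384-80896042, Sucnr1 chr3:60081869-60087566, Aqp8 chr7:123462294-123468003 and Aox3 chr1:58113135-58202221, all on the plus strand. The 250 bases up to the annotated start of each gene are shown because the genes moved in the same direction and the sequences differ widely in composition. The windows come from the RefSeq promoter table of GRCm38.p6, and all 4 genes were found in it. Capitals mark a match to a searched motif. The windows are chr13:80883134-80883383 for Arrdc3, chr3:60081619-60081868 for Sucnr1, chr7:123462044-123462293 for Aqp8 and chr1:58112886-58113135 for Aox3, which includes the first annotated base of the gene, whereas the other windows end before it.
Arrdc3: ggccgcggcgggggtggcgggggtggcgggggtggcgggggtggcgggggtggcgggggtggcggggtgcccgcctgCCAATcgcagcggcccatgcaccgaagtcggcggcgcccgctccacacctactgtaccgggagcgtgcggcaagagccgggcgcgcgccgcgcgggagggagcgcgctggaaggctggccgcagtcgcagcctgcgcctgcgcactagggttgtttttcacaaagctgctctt
Sucnr1: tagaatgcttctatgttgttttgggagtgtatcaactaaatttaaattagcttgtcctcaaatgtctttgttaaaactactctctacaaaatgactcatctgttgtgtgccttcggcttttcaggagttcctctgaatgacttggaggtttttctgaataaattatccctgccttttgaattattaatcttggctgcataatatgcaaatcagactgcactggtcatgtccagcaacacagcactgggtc
Aqp8: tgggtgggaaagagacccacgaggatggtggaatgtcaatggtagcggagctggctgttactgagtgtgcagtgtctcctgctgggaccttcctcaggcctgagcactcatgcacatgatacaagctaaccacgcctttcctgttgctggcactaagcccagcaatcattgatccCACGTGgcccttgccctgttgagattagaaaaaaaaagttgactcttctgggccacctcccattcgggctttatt
Aox3: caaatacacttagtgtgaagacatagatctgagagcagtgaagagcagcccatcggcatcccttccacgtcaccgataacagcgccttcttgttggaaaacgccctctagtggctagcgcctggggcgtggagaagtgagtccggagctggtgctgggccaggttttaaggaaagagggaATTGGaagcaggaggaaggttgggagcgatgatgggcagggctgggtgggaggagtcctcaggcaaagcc

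The Arrdc3 window had a GC content of 76%, higher than 96.7% of the 32851 windows in the table, and held 33 CpG dinucleotides. The Sucnr1 window lay at the opposite end with 38% GC and 1 CpG. The Aqp8 window matched the median of all windows at 52.4% GC, and the Aox3 window had 56.4%. The table lists 3 starts for Arrdc3, and the window at the start of the gene was used. Motifs were searched on both strands. The letters CCAAT occurred once in Arrdc3, at position -173 from the start, and once in Aox3, at position -70 in the reverse orientation, and 33.8% of all windows contained them. The E-box CACGTG occurred once in Aqp8, at position -75, and was present in 6.02% of all windows. The other searched motifs had no match in these windows, and these were the TATA box TATAAA, the FOXO site TGTTTAC, the STAT site TTCNNNGAA, the CEBP site TTGCNNAA, the cyclic AMP response element TGACGTCA, the GC box GGGCGG, the HNF4 site CAAAGTCCA and the glucocorticoid receptor half-site AGAACA. No searched motif was therefore found in all 4 windows, and the Sucnr1 window held none. The 3 matches lie apart from any other motif. A match is a run of letters and not a measured binding site.

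Arrdc3 was lower in the alcohol pool on 6 of 6 arrays, and its ratio fell further at each time point. Its log2 ratios of alcohol over control at 1 month were -0.41 with alcohol labeled by Cy5 and -0.57 with alcohol labeled by Cy3. The 2-month arrays read -1.33 and -1.28 in that dye order, and the 4-month arrays -3.00 and -2.81. The arrays of different months did not overlap, and the 2 dyes agreed closely in every month. The averages over the dye-swap pair were -0.49 ± 0.12, -1.31 ± 0.03 and -2.90 ± 0.14 for the 3 months (SD of 2 arrays, technical), so the signal of the control pool was 7.49-fold that of the alcohol pool at 4 months. At that time only 2 of the 37922 probes tested had a lower ratio than the probe of this adaptor gene, whereas at 1 month it stood at position 428 from the lowest.

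Sucnr1, the succinate receptor, showed the same order of months. The 1-month arrays gave log2 ratios of -0.63 with alcohol in Cy5 and -0.36 with alcohol in Cy3. The 2-month arrays gave -1.60 and -0.94, and the 4-month arrays -2.35 and -1.65. The arrays of the 3 months again did not overlap, although the 2 arrays of a pair differed more than those of Arrdc3, and the array with alcohol in Cy5 was the lower of the pair each time. The averages were -0.49 ± 0.19, -1.27 ± 0.47 and -1.997 ± 0.493 (SD of 2 arrays, technical), and the control signal was 3.99-fold that of the alcohol pool at 4 months. The probe stood at position 405 from the lowest ratio at 1 month, 25 at 2 months and 10 at 4 months.

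Aqp8, the hepatocyte water channel, was lowered by a similar amount at every time point. With alcohol in Cy5 its log2 ratios were -0.77, -1.06 and -1.28 in the order of the months, and with alcohol in Cy3 they were -0.59, -0.66 and -0.56. The ranges of the 3 months overlapped, because the Cy5 arrays became lower while the Cy3 arrays stayed between -0.66 and -0.56. The averages were -0.68 ± 0.13, -0.86 ± 0.28 and -0.92 ± 0.51 (SD of 2 arrays, technical), and the step from 2 to 4 months, -0.06, was smaller than the spread within either pair. Averaged over the months, the Cy5 arrays gave -1.04 and the Cy3 arrays -0.60 for this gene, a separation larger than the SD between months of 0.12.

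Aox3, the aldehyde oxidase, was also lowered by a similar amount at every time point. Its log2 ratios over the months were -0.69, -0.90 and -1.10 on the Cy5-alcohol arrays and -0.74, -0.90 and -0.81 on the Cy3-alcohol arrays. All 6 arrays lay within a narrow band, and the 4-month arrays enclosed those of 2 months. The averages were -0.72 ± 0.04, -0.90 ± 0.01 and -0.96 ± 0.21 (SD of 2 arrays, technical), so the control signal was 1.64-fold, 1.87-fold and 1.94-fold that of the alcohol pool. The step from 2 to 4 months, -0.06, was smaller than the spread of the 4-month pair.

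**Figure D1:**
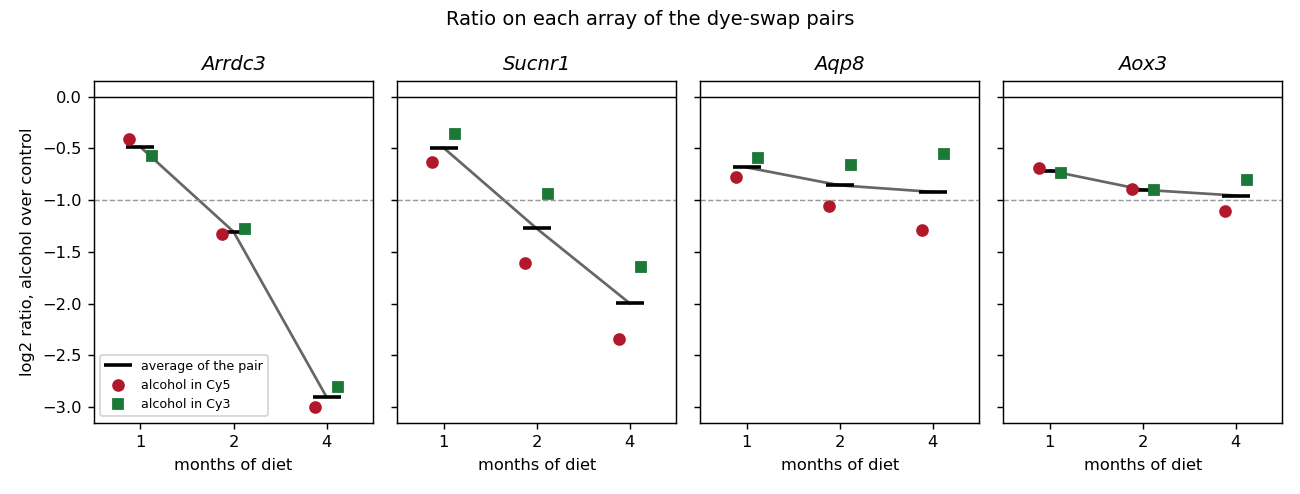
Log2 ratio of alcohol over control on each of the 6 arrays against months of diet, in a panel for each gene. Circles are arrays with alcohol in Cy5, squares arrays with alcohol in Cy3, bars their average, and the dashed line marks a 2-fold lower signal. Arrdc3 and Sucnr1 descend from -0.49 to -2.90 and -1.997, whereas the averages of Aqp8 and Aox3 stay between -0.68 and -0.96.

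The mean of the 3 monthly ratios was -1.57 ± 1.23 for Arrdc3, -1.26 ± 0.75 for Sucnr1, -0.82 ± 0.12 for Aqp8 and -0.86 ± 0.13 for Aox3 (SD, n = 3 pairs of pools). The SD of Arrdc3 and Sucnr1 was large because it contains the descent, with differences between 4 months and 1 month of -2.42 for Arrdc3 and -1.50 for Sucnr1. For Aqp8 and Aox3 this difference was -0.24 in each. Within the slide that held 2 and 4 months alone, the means were -2.11, -1.64, -0.89 and -0.93 in the same order of genes.

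All 4 genes were lower in alcohol on 6 of 6 arrays, as were 2.38% of all probes tested. A probe was called lower in a month when its average ratio was at least 2-fold and the error that the scanner software models for it gave a p below 0.05, which describes the arrays and not the mice. At 1 month 0 of the 4 genes were called, against 0.087% of all probes. Arrdc3 and Sucnr1 were called at 2 months, when 0.137% of all probes were, and at 4 months, when 0.295% were, and 0.0396% of probes were at least 2-fold lower at both times. Aqp8 and Aox3 missed the 2-fold threshold in every month. With the threshold at 1.5-fold they were called in all 3 months, as were 0.0369% of probes, and Arrdc3 and Sucnr1 missed it at 1 month. The share of probes at least 1.5-fold lower in the single months was 0.356%, 0.891% and 1.27%. The ratio became lower at each step, with all 6 arrays below 0, in 0.738% of probes, among them all 4 genes. These genes were chosen by the same ratios, so nothing further is read from these counts.

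**Figure D2:**
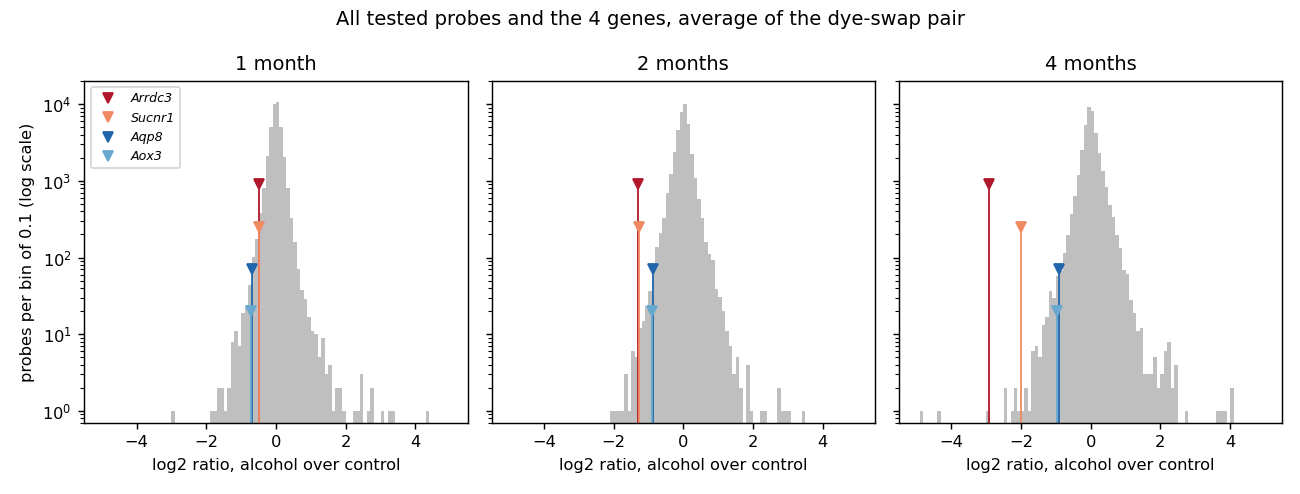
Number of probes in bins of 0.1 of the log2 ratio of alcohol over control (logarithmic vertical axis) for all 37922 probes tested, with a panel for each month, and the 4 genes as colored markers whose height carries no value. The genes lie together on the lower flank at 1 month, and Arrdc3 and Sucnr1 move to the extreme lower tail by 4 months.

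The signal of each pool was compared on a log2 scale relative to the 75th percentile of its channel, as the average of the 2 dyes, and only within a probe. All 4 probes were well above background in 12 of 12 channels and saturated in 0, so every ratio rests on measured signal in both pools.

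For Arrdc3 the control pools of the 3 months read 0.21, -0.87 and -0.84, and the alcohol pools -0.28, -2.18 and -3.74. On the slide shared by 2 and 4 months the control level changed by 0.03, less than the larger SD between dyes of 0.31, and the alcohol level fell by 1.56. The deepening of the Arrdc3 ratio from 2 to 4 months therefore lay in the alcohol pool. Ordered from high to low, the pools were control at 1 month, alcohol at 1 month, control at 4 months, control at 2 months, alcohol at 2 months and alcohol at 4 months, and only the controls of 4 and 2 months did not differ beyond their dye spread. With the channel median as the scale, the alcohol pool of 1 month moved from the second to the third position.

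Sucnr1 behaved differently in the same pools. Its control level was 0.65, -1.28 and -0.30 at 1, 2 and 4 months, and its alcohol level 0.16, -2.56 and -2.30. From 2 to 4 months the control level of the receptor was higher by 0.98, against a larger SD between dyes of 0.45, while the alcohol level differed by 0.26, no more than its dye SD of 0.26. The lower Sucnr1 ratio at 4 months than at 2 months thus came with a higher control signal and not with a lower alcohol signal. The order was control at 1 month, alcohol at 1 month, control at 4 months, control at 2 months, alcohol at 4 months and alcohol at 2 months, of which the last neighbors did not differ beyond the SD between dyes. The alcohol pool of 1 month again took the third position under the channel median.

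Aqp8 levels moved in parallel in both pools. The control level was 2.91, 1.99 and 2.82 at 1, 2 and 4 months, and the alcohol level 2.23, 1.12 and 1.90. From 2 to 4 months the level of the water channel was higher by 0.83 in the control pools and by 0.77 in the alcohol pools, against larger SDs between dyes of 0.49 and 0.22. The order was control at 1 month, control at 4 months, alcohol at 1 month, control at 2 months, alcohol at 4 months and alcohol at 2 months, and the controls of 1 and 4 months did not differ beyond their spread. This order depended on the scale, because with the channel median the control pool of 4 months stood first and the alcohol pool of 1 month took the fifth position. The 2-month alcohol pool was lowest under all 3 scales.

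Aox3 levels were lower at 4 than at 2 months in both pools. The control level was 1.72, 1.09 and 0.65 at 1, 2 and 4 months, and the alcohol level 1.00, 0.18 and -0.31. On the shared slide, from 2 to 4 months, the level of this oxidase fell by 0.44 in the control pools and by 0.49 in the alcohol pools, against larger SDs between dyes of 0.13 and 0.07. The order was control at 1 month, control at 2 months, alcohol at 1 month, control at 4 months, alcohol at 2 months and alcohol at 4 months, and control at 2 months and alcohol at 1 month did not differ beyond their spread. Under the channel median alcohol at 1 month and control at 4 months exchanged positions, and after Aquantile normalization control at 2 months and alcohol at 1 month did so.

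**Figure D3:**
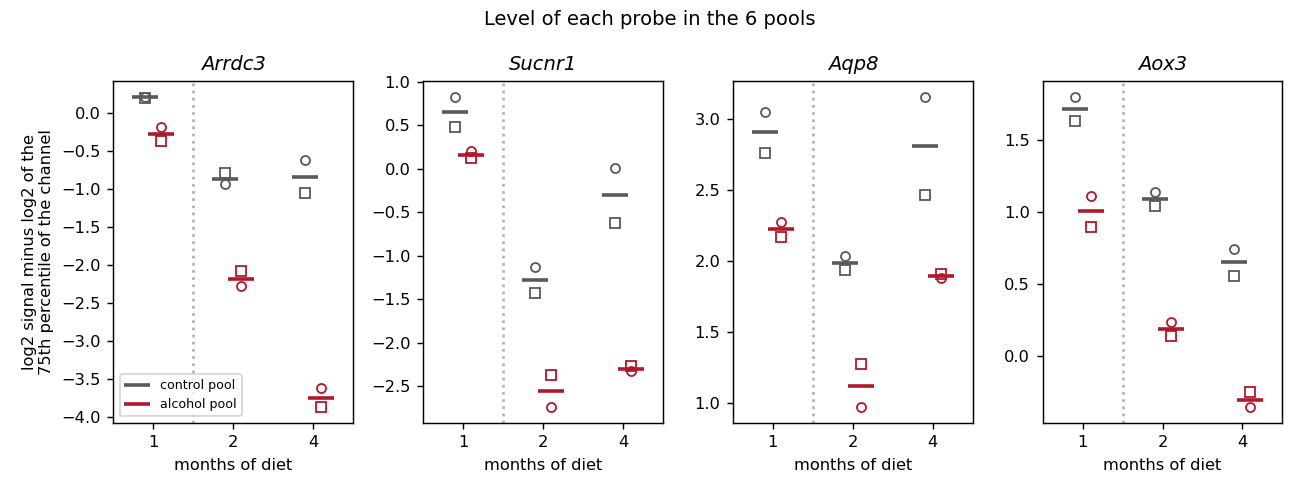
Log2 signal of each probe relative to the 75th percentile of its channel in the control pools (gray) and alcohol pools (red) against months of diet. Bars are averages of the 2 dyes, circles the array with alcohol in Cy5, squares the array with alcohol in Cy3, the dotted line separates the slides, and the vertical scale differs between panels. Each alcohol pool lies below the control pool of its month, and from 2 to 4 months the alcohol level falls for Arrdc3 while the control level is higher for Sucnr1.

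Changes across the slides, from 1 to 2 months, moved with the scale. The control level of Arrdc3 fell by 1.07 from 1 to 2 months on the 75th percentile scale and fell by 0.53 with the channel median. The corresponding changes were -1.93 and -1.39 for Sucnr1, -0.92 and -0.38 for Aqp8, and -0.63 and -0.09 for Aox3. The level of a probe at 1 month is thus not set against later months here beyond the order given above. The pools were bulk liver, in which fewer cells of a type and less RNA per cell cannot be told apart.

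Across 27900 probes well above background in every channel, Pearson r between the arrays of a pair was 0.16, -0.30 and -0.32 for the 3 months in order, as a description over probes, which are not replicates. The part of a ratio that follows the dye, taken as the difference between the arrays divided by 2, had an SD over these probes of 0.14, 0.25 and 0.31 on the log2 scale. The dye part of Sucnr1 was -0.14, -0.33 and -0.35 and that of Aqp8 -0.09, -0.20 and -0.36, so both genes sat near or slightly beyond that spread. For Arrdc3 the dye part was 0.08, -0.02 and -0.10, and for Aox3 0.02, 0.00 and -0.15. Within each pair the sign of the ratio did not change for any of the 4 genes.

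The genes whose 6 single-array ratios lay nearest were sought among 19860 genes well above background throughout, by Euclidean distance. The pair Aqp8 and Aox3 were each the nearest of all genes to the other, at a distance of 0.46. Both were chosen by the same ratios that give this distance, so their nearness is no separate result. Arrdc3 had Mup3 at 1.43, Sucnr1 at 1.43 and Alas2 at 1.75 as its nearest, and Sucnr1 had C9 at 0.92, Alas2 at 1.07 and Mup3 at 1.42. The nearest genes of the 2 descending members were largely shared. Few probes had ratios as low as these members at 4 months, which leaves few genes that could lie near them. The large distances of Arrdc3 and the shared genes are therefore not read as a trait of these members. Mup3, a major urinary protein of male liver, had -0.89, -0.77 and -2.23 as its monthly log2 ratios. C9, a terminal complement component made by hepatocytes, had -0.49, -0.82 and -1.54. Alas2, the erythroid enzyme of heme synthesis, had 0.05, -0.75 and -2.003. Mup3 and C9 were lower on 6 of 6 arrays and Alas2 on 5 of 6. The Mup3 probe may also read near-identical genes of its family.

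Close to Aqp8 stood F11, the liver-made coagulation factor XI, at a distance of 0.585 with log2 ratios of -0.74, -0.57 and -0.64. Close to Aox3 stood Dbp, a transcription factor with a strong daily rhythm, at 0.72 with -0.27, -1.001 and -0.81. The probe A_52_P402127, at 0.585 from Aqp8, and the probe A_51_P268929, at 0.68 from Aox3, complete the sets and have no gene symbol in the reference used. By limma with Benjamini-Hochberg adjustment the adjusted p was 0.62 for Mup3, C9, Alas2 and Dbp and 0.44 for F11. The 6 arrays share the pools of 3 months, and nearness over so few values is a description.

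The limma test over the 3 monthly ratios called 0 of 37922 probes at an adjusted p of 0.05, with 1684 lower (4.44%) and 1344 higher (3.54%) at an unadjusted p below 0.05. After normexp background correction and loess it called 9 probes, and the methods' t-test called 0 after adjustment with 2247 below 0.05 before it. The relatives of the 4 genes are therefore given by values and counts, and no list below held a gene that passed. Since 0 probes passed, a count of 0 passing in a list or among neighbors below is no result about that set.

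The other alpha-arrestins did not share the ratio of Arrdc3. All 5 on the array were well above background, with medians of -0.02, -0.02 and 0.01 at 1, 2 and 4 months beside medians of 0.00, 0.01 and -0.01 over all probes. Their lowest ratio was -0.29, for Arrdc4 at 2 months, and 0 of 5 were 1.5-fold lower in any month. Of all probes, 0.356%, 0.891% and 1.27% were called 1.5-fold lower at 1, 2 and 4 months, so such calls were rare. A count of 0 in this list, or in the short lists below, is therefore not read as a trait of its genes. Txnip, the thioredoxin-binding member of the family, had log2 ratios of 0.03, -0.02 and 0.72. Arrdc1, Arrdc2 and Arrdc5 stayed between -0.11 and 0.18.

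Of the 7 ubiquitin ligases of the NEDD4 family, which alpha-arrestins recruit, the brightest probes ranged from -0.24 to 0.16 over the months. Nedd4, the founding member of the ligase family, had log2 ratios of -0.23, -0.05 and -0.02, and Itch had -0.06, -0.24 and -0.06. The probes of a ligase did not all read alike. Nedd4l had -0.01, 0.14 and 0.14 by its brightest probe, while its probe A_51_P305936 was higher on 6 of 6 arrays with 0.12, 0.42 and 0.39 and an adjusted p of 0.62 by limma. A second Smurf1 probe, A_52_P516, had -0.46 and -0.15 at 2 and 4 months, and was not well above background at 1 month. Of the beta-arrestins, which bind activated receptors, Arrb1 had 0.08, 0.07 and -0.06 and Arrb2 had -0.34, -0.25 and 0.05. By the brightest probe none of these 9 genes was 1.5-fold lower in any month.

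The receptors related to Sucnr1, which include purinergic and metabolite-sensing G-protein-coupled receptors, had mostly dim probes. Of 12 measured, 4 were well above background in every channel, and medians were -0.02, -0.02 and -0.05. P2ry1, which lies on the same chromosome beyond Mbnl1, had ratios on the log2 scale of -0.27 at 2 months and -0.56 at 4 months, and at 1 month the alcohol pool was above background on only some arrays and the control pool on none. P2ry2 had -0.04, -0.46 and 0.04 by its brightest probe. Its other probe, A_51_P287635, had -0.05, -0.39 and -0.19 and was lower on 6 of 6 arrays, as were 2.38% of all probes. None of the 12 was 1.5-fold lower in any month by its brightest probe. A second P2ry1 probe, A_52_P464372, had 0.18 at 2 months and -0.67 at 4 months.

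Of the 15 genes that make, use or carry succinate, 0 passed the test. Their medians were 0.12, -0.07 and 0.01. The subunits of succinate dehydrogenase, Sdha, Sdhb, Sdhc and Sdhd, which oxidize succinate, ranged from -0.23 to 0.22. The brightest probes of Sucla2, Suclg1 and Suclg2, which form succinate from succinyl-CoA, ranged from -0.15 to 0.26. A second probe of Sucla2, A_51_P111554, had 0.02, -0.32 and -0.48. The dicarboxylate carrier Slc13a2 averaged -0.39 at 4 months, but its arrays gave 1.25 and -2.03, so that no direction can be given.

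The other aquaporins had medians of 0.13, 0.02 and -0.02 over 11 genes, of which 10 were well above background in every channel and by the brightest probe 0 were 1.5-fold lower in any month. With the mean over all probes of a gene the medians at 2 and 4 months were -0.16 and -0.18. A second Aqp7 probe, A_52_P403405, averaged -0.63 at 4 months, with -0.02 and -1.23 on its arrays. Aqp9, the glycerol channel of hepatocytes, had log2 ratios of 0.06, -0.12 and -0.48, but its 2 arrays at 4 months gave -1.23 and 0.27, so that no direction can be given. The 3 probes of Aqp9 shared this split between dyes at 2 and 4 months. Aqp1, the water channel of endothelium and bile ducts, was higher on 6 of 6 arrays with 0.14, 0.22 and 0.34, as were 1.49% of all probes, and its limma effect was 0.24 ± 0.07 (SE) with an adjusted p of 0.62. Aqp11, an intracellular aquaporin of liver and kidney, had 0.19, -0.39 and 0.05.

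Among 11 genes of molybdenum enzymes and of molybdenum cofactor synthesis, medians were 0.01, 0.00 and 0.04, and by the brightest probe 0 were 1.5-fold lower in any month. Aox1, the closest measured relative and the neighbor of Aox3, had log2 ratios of -0.39, 0.52 and 0.00. Its arrays agreed in sign at 1 month with -0.41 and -0.37 and at 2 months with 0.24 and 0.80, and disagreed at 4 months with -0.35 and 0.35. Xdh, the xanthine dehydrogenase, had 0.01, 0.19 and 0.14. Suox, the sulfite oxidase, had 0.29, -0.11 and 0.04. Mocs1, Mocs2, Mocs3 and Gphn, which build the cofactor that Aox3 needs, stayed between -0.10 and 0.31 by their brightest probes. Another Gphn probe, A_52_P300500, had -0.41 at 4 months, with -0.50 and -0.33 on its arrays.

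**Figure D4:**
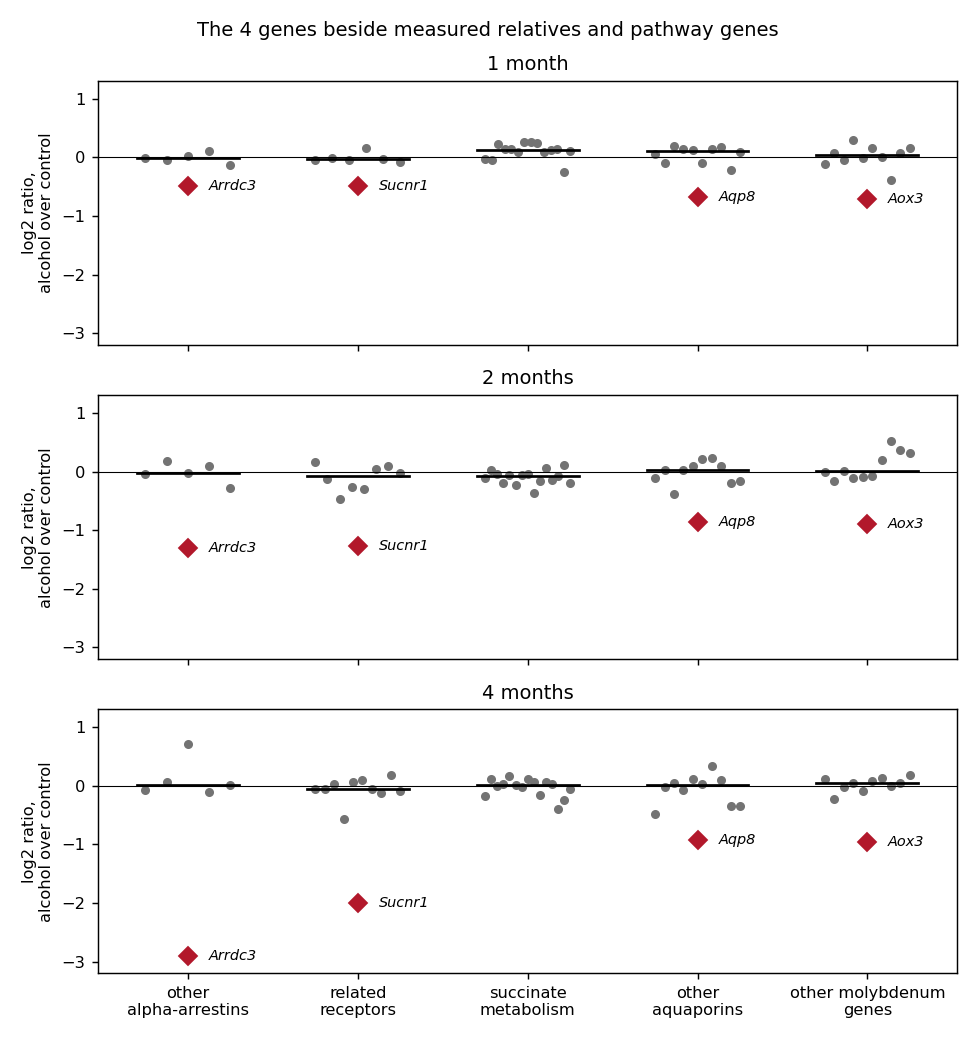
Log2 ratio of alcohol over control, averaged over the dye-swap pair, for the 4 genes (red diamonds) and for relatives and pathway genes well above background in both pools of the month (gray points, black bars for their medians), in a panel for each month. The diamonds, which range from -0.49 to -2.90, lie below every gray point of their own group.

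The genomic neighbors gave no common pattern. Of the 16 protein-coding genes that flank the 4 genes, up to the second on either side, 13 were on the array, and 0 passed the limma test, with adjusted p-values of 0.62 or more. Adgrv1, a large adhesion receptor gene 199 kb beyond Arrdc3, was the only neighbor whose brightest probe reached a 2-fold lower ratio. Its log2 ratios over the months were -0.12, -1.03 and -1.005 on the Cy5-alcohol arrays and -0.25, -1.12 and -0.95 on the Cy3-alcohol arrays, so it was lower on 6 of 6 arrays but did not fall further at 4 months. Its 7 probes disagreed, since A_51_P389539 averaged -0.13, -1.32 and -1.59 while A_52_P192596 and A_52_P56322, well above background in 12 of 12 channels, stayed between -0.18 and 0.44. Aadac, the arylacetamide deacetylase 41.7 kb before Sucnr1, averaged -0.13, -0.40 and -0.43, but its pair split by dye, with -0.80 and -0.01 at 2 months and -0.95 and 0.09 for the last month, so that no direction can be given there. By their brightest probes Lcmt1 and Zkscan2, which flank Aqp8, averaged between -0.25 and 0.13, and the arrays of a pair disagreed in sign for Lcmt1 in every month and for Zkscan2 at 2 and 4 months, so that no direction can be given there. On either side of Aox3 lie the aldehyde oxidase genes Aox1, at 6.72 kb, and Aox4, at 8.18 kb, and the Aox4 probe was too dim for a ratio at 2 and 4 months.

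Other cell types that express these genes were followed through their markers. The stellate cell markers, of interest for Sucnr1, were well above background for 10 of 10 genes, with medians of 0.00, -0.01 and 0.02. Their summed log2 level over the months was 4.37, 5.37 and 5.29 in the alcohol pools and 4.29, 5.40 and 5.30 in the control pools. These sums add signals over probes, so bright probes weigh most. They are compared only between the pools of a month, since the first month was on another slide. Among them Reln was lower on 6 of 6 arrays with -0.19, -0.50 and -0.67, and Lrat, the retinol-esterifying enzyme, had -0.10, 0.36 and 0.46. The part of stellate cells in the Sucnr1 ratio was not tested.

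The pancreas acinar markers, of interest for Aqp8, had medians of -0.05, 0.02 and 0.66 over 9 genes, and their summed log2 level at 4 months was 4.49 in the alcohol pool and 4.09 in the control pool. Amy2a5 was not well above background in any pool, and Cpb1 and Cela2a were 2-fold higher at 4 months with 2.17 and 3.75, as were 0.367% of all probes. Aqp8 was lower at 4 months while these markers were higher, and their part in its ratio was not tested. Hepatocyte markers had medians of 0.08, 0.03 and 0.11 over 9 genes. Of 4 blood markers, Hba-a1 had 1.51, -0.10 and 0.61, and the values of Alas2, near those of Arrdc3 and Sucnr1, are given above.

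Genes with higher expression in male liver were measured beside the 4 genes, and their part in these ratios was not tested. Of 15 tested, 0 passed after adjustment, 12 had averages below 0 in every month, against 15% of all probes, and 7 were lower on 6 of 6 arrays, against the 2.38% given above, with medians of -0.57, -0.43 and -0.86. The other 3 were above 0 in some months, with averages of 0.50, 0.19 and -0.13 for Cyp4a12a, -0.37, 0.58 and -1.20 for Elovl3, and -1.20, -0.26 and 0.07 for Gstp1. Those 2-fold lower in a month and lower on 6 of 6 arrays followed different courses. Hsd3b5, a steroid reductase of male liver, had the lowest log2 ratios of the list with -2.93, -2.04 and -4.83, and like Mup3 it was lowest at 4 months. Cyp7b1, the oxysterol hydroxylase, had -1.55, -1.42 and -1.64, and the complement gene C6 had -1.31, -0.70 and -1.23. Selenbp2, a selenium-binding protein, had -1.61, -0.97 and -0.36, and was least lowered at 4 months. Of 15 female-predominant genes, 0 passed and 8 were higher on 6 of 6 arrays, against 1.49% of all probes, with medians of 0.45, 0.24 and 1.19. The male and female lists were written with earlier results of these data known. Their counts are therefore no independent comparison with all probes.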

How the data were processed

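Liver RNA of 6 mice per group was pooled after 1, 2 and 4 months and hybridized on 6 two-color arrays, 2 per month with exchanged dyes. The authors deposited, per the file headers, the output of Feature Extraction 9.1.1.1 for every spot, which holds intensities of both channels after background subtraction and dye normalization, a log10 ratio (Cy5 to Cy3) and the modeled error of that ratio. The deposited table of log10 ratios of the same arrays served as an alternative. The software equalizes the overall signal of the dyes, so every ratio is relative to the average probe.

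The 4 genes and all gene lists were chosen with earlier results of these data known. Ratios were turned to alcohol over control by the labeled dyes, converted to log2 and averaged, first over replicate spots and then over the pair, after control spots were left out. Probes were named by accession (22951), symbol (6659) or synonym (3109) through a RefSeq table, and 8455 kept the name in the file. Arrdc3 was matched by symbol. One gene of a list is not reported here. Of several probes for a gene, the one with the highest mean signal was used. The 37922 probes that rose well above background in any channel were tested against 0 with limma (version 3.58.1, R 4.3.3) from their monthly ratios, with Benjamini-Hochberg adjustment, after a check on simulated data. The pools are the only replicates, and limma has 2 residual degrees of freedom before moderation. Tables were made with pandas 2.3.3 and numpy 2.4.6 in Python 3.11.15 and figures with matplotlib 3.10.9.

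Genes were named by this rule: the 4 genes, for each the 3 genes with the nearest ratios on 6 arrays, the flanking protein-coding genes up to 2 per side, the members of their own families, and list genes changed 2-fold in a month and in 1 direction on 6 arrays. Other list genes named were chosen after their values were seen. Family members and female-predominant genes that met the rule but are not named enter only the medians and counts. The alternatives were normexp (offset 50) with loess, the deposited table, each dye orientation alone, an error-weighted average, median centring, filters on dim probes, other channel scales, other rules for several probes, leaving out each month and a t-test without moderation.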

Additional observations from a re-analysis of the deposited data

Results flagged for a closer look

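No group held 4 or more independent samples, so no sample could be compared with others of its own group. Among 86 genes compared as nearest genes, neighbors or relatives of Arrdc3, Sucnr1, Aqp8 and Aox3, 8 had both arrays of a month on the opposite side of 0 from both arrays of another month, in 9 differences between months in which both pools were well above background on both arrays, and none of these differences was tested. P2ry1 is not counted, since its probe was not well above background in every channel at 1 month. The share of all probes that meet the same rule was not computed, so nothing is read from the count of 8. For Aox1 the log2 ratio was 0.91 higher at 2 months than at 1 month, from -0.39 to 0.52. For Lysmd3 it was 0.58 higher at 2 months than at 1 month. Lower ratios at 2 months than at 1 month were seen for Slc25a10 (difference -0.6), Aqp11 (-0.58), Arhgap17 (-0.33), Sdhd (-0.31) and Dld (-0.28). At 4 months the ratio of Arhgap17 differed from that at 1 month by -0.5 and that of Ogdh by 0.15. The slides differ between 1 month and later months, so slide and month cannot be told apart in any of these differences.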

How the results depend on the processing

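All 36 alternative values of the mean ratios and all 72 of the monthly ratios of the 4 genes were below 0. The alternatives that moved a value by more than its spread were few. With normexp and loess the Arrdc3 ratio was -1.24 at 2 months and -2.71 at 4 months. The mean ratio of Aqp8 was -1.04 with alcohol in Cy5 alone and -0.60 with alcohol in Cy3 alone. Leaving out each month in turn gave mean ratios of -2.11 to -0.90 for Arrdc3, -1.64 to -0.88 for Sucnr1, -0.89 to -0.77 for Aqp8 and -0.93 to -0.81 for Aox3. After loess and Aquantile normalization the change in the alcohol pools from 2 to 4 months was -1.35 for Arrdc3 and -0.41 for Aox3. The limma test called 9 probes with normexp and 6 when limited to the 27900 probes well above background in every channel, and 0 under its 10 other settings, including without each month. Of the alternative level changes 17 moved by more than the spread between dyes and 15 did not, and all but those given above concern the step across slides from 1 to 2 months. Of the alternative list medians 8 moved by more than the spread of their pair and 40 did not. The cause of these differences was not tested.

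Each gene had 1 probe, so alternative rules for several probes could not be run on them. A correlation within slides could not be estimated from 3 monthly ratios on 2 slides, so the fit with slide as a random block was not run. Every ratio pairs the alcohol and control pools of a month on the same arrays, and the limma test rests on these ratios. No fit with a replicate block was possible because the 2 arrays of a month are the dye orientations of the same pools and were averaged to 1 ratio, which left 1 value per month.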
